A study of Homo sapiens with 2 samples.

Results

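The genes described here are 10 Kruppel-like factor genes, KLF2, KLF3, KLF4, KLF5, KLF6, KLF9, KLF10, KLF11, KLF13 and KLF16, out of 20162 protein-coding genes annotated on hg19. They were taken as a listed set by symbol, chosen with earlier results of these data known. SOX9 peaks were assigned to them by the position of the summit, either within 1 kb of an annotated transcription start site (TSS) of the gene, called a promoter peak, or inside the gene or within 100 kb of its ends. Of 17847 SOX9 peaks, 51 met this rule and 9 of these were promoter peaks. The data came from chromatin immunoprecipitation sequencing (ChIP-seq) of HT-29, an established human colorectal cancer cell line that expresses endogenous SOX9. The first library was the ChIP with an antibody to SOX9 (Millipore, AB5535) and the second was input DNA from the same cell line, with no antibody. No treatment separated them, and both came from overnight cultures in serum-containing medium. With 1 library of each kind and no replicates, no difference could be tested between samples, and each tag count is given with an exact Poisson 95% interval that covers counting error only. Each library held 12320108 tags after the input had been downsampled to the ChIP.

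Kruppel-like factors are transcription factors whose C-terminal zinc fingers recognise GC-rich sequence, namely GC boxes and CACCC boxes, and their N-terminal parts recruit coactivators or corepressors. By those partners the family is usually divided into activators (here KLF2, KLF4, KLF5 and KLF6), a repressor that binds CtBP (KLF3) and repressors that bind SIN3A (KLF9, KLF10, KLF11, KLF13 and KLF16). In the intestinal epithelium KLF5 is found in proliferating crypt cells and KLF4 in differentiated cells, including goblet cells. SOX9 is a high-mobility-group transcription factor of crypt cells. The CCAAT box is the recognition sequence of NF-Y, a histone-fold factor of many promoters.

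SOX9 was found at the promoters of 7 of the 10 genes, against 44.8% of all protein-coding genes, and CCAAT boxes lay near 8 of the 9 summits. GC boxes also lay near 8 of the 9 summits. The following 6 sequences are shown for their CCAAT boxes. Each reads 5′ to 3′ on the strand of its gene from the hg19 genome, with every CCAAT, or ATTGG where the box is on the other strand, in capitals. The windows of KLF6, KLF13, KLF11 and KLF5 are centred on the summit, that of KLF4 starts at the summit and that of KLF3 ends there.
KLF6 promoter, chr10:3827600-3827700, minus strand: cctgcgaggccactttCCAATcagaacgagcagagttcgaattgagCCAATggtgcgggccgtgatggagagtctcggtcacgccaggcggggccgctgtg
KLF13 promoter, chr15:31618781-31618881, plus strand: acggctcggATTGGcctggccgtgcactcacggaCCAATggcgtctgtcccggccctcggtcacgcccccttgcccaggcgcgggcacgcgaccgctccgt
KLF11 promoter, chr2:10183536-10183636, plus strand: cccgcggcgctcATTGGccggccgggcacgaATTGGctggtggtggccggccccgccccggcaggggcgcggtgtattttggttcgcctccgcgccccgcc
KLF5 internal promoter, chr13:73632996-73633096, plus strand: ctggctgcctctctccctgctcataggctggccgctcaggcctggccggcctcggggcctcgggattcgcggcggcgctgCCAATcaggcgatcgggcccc
KLF4 intronic promoter peak, chr9:110250823-110250923, minus strand: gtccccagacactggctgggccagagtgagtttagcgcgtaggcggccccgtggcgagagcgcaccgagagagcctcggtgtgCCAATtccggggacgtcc
KLF3 second promoter peak, chr4:38666693-38666793, plus strand: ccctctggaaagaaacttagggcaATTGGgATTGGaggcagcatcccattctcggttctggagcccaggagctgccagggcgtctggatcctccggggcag
CCAAT lay within 100 bp of the summit in 8 of the 9 promoter peaks of KLF genes (88.9%), against 2653 of all 8655 promoter peaks (30.7%). In the windows 1 kb to either side of the KLF promoter peaks, it was present in 4 of 18 (22.2%). At least 2 CCAAT boxes were present in 6 of the 9 (66.7%), against 13.7% of all promoter peaks. Counted by gene, each of the 7 genes with a promoter peak had CCAAT under at least 1 of them, against 34.1% of the 9035 genes with a promoter peak. KLF3 and KLF10 had 2 promoter peaks each, and in KLF3 only the one with fewer tags held CCAAT. The extended box of 2 purines, CCAAT, a C or G and a further purine was present in 5 of the 9 KLF promoter peaks (55.6%), against 14.8% of all promoter peaks. These counts over 9 peaks are a description, and the counts of repeated and extended boxes were chosen after the CCAAT positions had been seen. The GC content of the same windows had a median of 73.1% in KLF promoter peaks, against 67.7% in all promoter peaks. The median tag count was 97 in KLF promoter peaks, against 56 in all promoter peaks. Over all genes, the strongest promoter peak held a median of 68 tags where a promoter peak had CCAAT and 55 where none did. The CCAAT shares were not compared at equal tag counts.

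The distance of the CCAAT boxes from the summits differed between the peaks. In KLF6 the boxes were centred 32 and 2 bp upstream and 67 bp downstream of the summit, and the first pair were 30 bp apart. In KLF10, the pair of boxes under each of its promoter peaks was 32 bp apart, with the nearest box 2 bp downstream of the summit at the gene start and 10 bp upstream of the summit at the internal start. KLF13 had boxes 39 and 14 bp upstream on opposite strands, and KLF11 had them 36 and 17 bp upstream on the same strand. Farther out were the single KLF5 box 32 bp downstream of the summit, the single KLF4 box 85 bp downstream and the KLF3 pair 74 and 68 bp upstream. The first promoter peak of KLF3 was the only one of the 9 without a box, and its window held 7 GC boxes (GGGCGG). With 50 bp searched on either side of the summit in place of 100 bp, 6 of the 9 KLF promoter peaks held CCAAT (66.7%), against 22.5% of all promoter peaks.

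The other elements differed from all promoter peaks by fewer percentage points than CCAAT did. The GC box was present in 8 of the 9 (88.9%), against 61.3% of all promoter peaks, and CACCC in 4 (44.4%), against 50.9%. The ETS core CCGGAA was present in 1 of the 9 (11.1%), against 24.5%, and the AP-1 element TGANTCA in 1 (11.1%), against 4.69%. The SOX9 heptamer, searched as AACAAAG with T also allowed at the first, second and sixth letters, was present only in the internal KLF10 peak (11.1% of the 9), against 7.68% of all promoter peaks. All elements were searched on both strands and may overlap one another, and no match says only that these letters were not in the window.

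Among the activators, KLF6, which binds core promoter elements and is studied as a tumour suppressor, had the highest SOX9 signal of the 10 genes. Its promoter peak, chr10:3827009-3828464, held 201 tags (95% interval 174 to 231) with the summit 177 bp upstream of the TSS. The SOX9 signal, in extended tags per 32-nt bin, reached 124 in this peak, against 8 in the input, and the MACS fold enrichment over the local input was 39.1. By signal the peak stood at the 98.2nd percentile of the strongest promoter peaks of all genes, and by tags at the 96.5th.

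KLF5, which supports proliferation of crypt epithelium, had a promoter peak at an internal start only. The peak, chr13:73632599-73633527, held 174 tags (149 to 202), and its summit was 97 bp upstream of a start within the annotated gene. The summit itself was 3932 bp downstream of the gene's 5′ end. SOX9 reached 98 in it, against 8 in the input, with a fold enrichment of 30.5. Within 1 kb of the first KLF5 start, by contrast, SOX9 reached 8, against 7 in the input, nearly the same in both libraries. RefSeq holds both starts. In its sequence from 250 bases before to 50 after each start (GRCh38.p14), the internal start had 2 CCAAT boxes and the first start had 0.

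KLF4, which is enriched in differentiating gut epithelium and is one of the reprogramming factors, had a weak promoter peak. The interval chr9:110250319-110251597 held 50 tags (37.1 to 65.9), and SOX9 reached 12 in it, against 4 in the input, with a fold enrichment of 6.09. Its summit was in an intron, 195 bp upstream of the start of a transcript with a retained intron. It was 1127 bp downstream of the RefSeq start and 1840 bp downstream of the gene's 5′ end. The only KLF4 starts within 1 kb of the summit were of transcripts with a retained intron, and KLF4 had no promoter peak when only starts of protein-coding transcripts were counted. KLF2, known for its part in endothelial cells and T cell quiescence, had no promoter peak. SOX9 reached 10 within 1 kb of its starts, against 4 in the input.

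KLF3, the repressor that recruits CtBP, had 2 promoter peaks, and 4.95% of protein-coding genes had 2 or more. The first, chr4:38665028-38666169, held 64 tags (49.3 to 81.7) with the summit 266 bp upstream of the TSS, and SOX9 reached 18, against 3 in the input. The second, chr4:38666204-38667141, held 36 tags (25.2 to 49.8) with the summit in the first part of the gene, 828 bp downstream of the start of a transcript with a retained intron, and SOX9 reached 11, against 4 in the input. The intervals of the tag counts overlapped only between 49.3 and 49.8. With KLF10, KLF3 was 1 of 2 genes of the set with more than 1 promoter peak.

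In the SIN3A-binding group, KLF10, induced early by TGF-beta, had both of its promoter peaks above the median. At the gene start, chr8:103667609-103668737 held 109 tags (89.5 to 131) with the summit 110 bp upstream of the TSS, and SOX9 reached 56, against 6 in the input. At an internal start, chr8:103665762-103667162 held 97 tags (78.7 to 118) with the summit 318 bp downstream, in a UTR exon, and SOX9 reached 36, against 4 in the input. The tag counts of these peaks did not differ beyond their intervals. KLF11, the close relative of KLF10, had a much smaller peak of 22 tags (13.8 to 33.3) at chr2:10183376-10183920, 91 bp upstream of an internal start, where SOX9 reached 16, against 4 in the input. Its fold enrichment was 13.5, higher than that of KLF3 or KLF13.

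KLF13, which activates the chemokine gene CCL5 in T cells, had the most tags of the 9 promoter peaks. The peak chr15:31617886-31621025 held 206 tags (179 to 236) with the summit 207 bp upstream of the TSS. It was also the widest of the 9, at 3140 bp, and its signal was lower than that of KLF6 or KLF5, since SOX9 reached 47, against 9 in the input, with a fold enrichment of 11.9. The order of the genes thus depended on the measure, with KLF13 first by tags (96.7th percentile of all genes with a promoter peak) and behind KLF6, KLF5 and KLF10 by highest signal (87.0th percentile). Per kb of interval, KLF5 had 187 tags, KLF6 138, the first KLF10 peak 96.5 and KLF13 65.6.

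KLF9 and KLF16, SIN3A-binding repressors of which KLF9 is hormone-inducible, had no promoter peak. SOX9 reached 11 within 1 kb of the KLF9 start, against 6 in the input, and 13 within 1 kb of the KLF16 starts, against 8 in the input. These values and the 10 of KLF2 were in the range of the called KLF4 peak, which reached 12, so a missing call did not separate these genes from KLF4 by signal. Over all protein-coding genes the medians were 12 for SOX9 and 5 for the input. In the RefSeq sequence around their starts, KLF9 held 2 CCAAT boxes, while KLF2 and KLF16 held 0, and 34.6% of 35116 RefSeq promoters held at least 1. KLF6 and KLF13 held 2 each in the same window. KLF4 and both starts of KLF11 held 0, and the boxes within 100 bp of their summits lay outside that window.

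**Figure D1:**
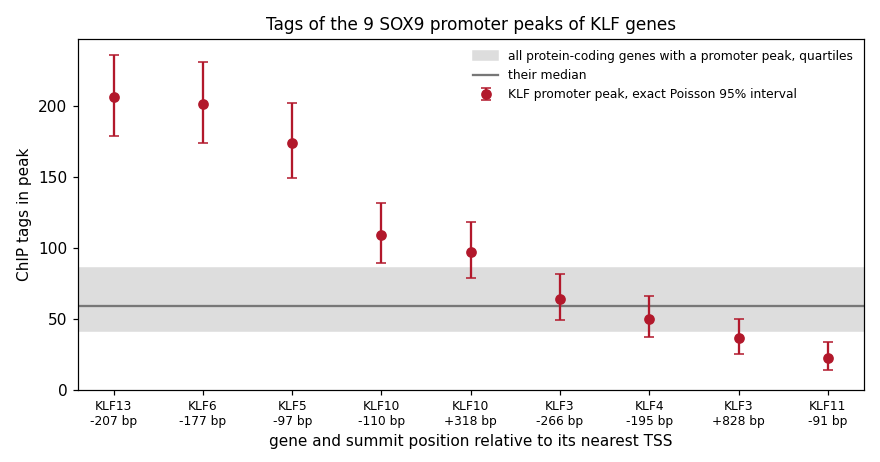
ChIP tags in each of the 9 promoter peaks of the KLF genes, ordered by tags, with exact Poisson 95% intervals, and the distance of each summit from its nearest TSS. The grey band marks the quartiles (41 to 86 tags) and the line the median (59 tags) over the strongest promoter peak of every protein-coding gene that had one.

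The strongest promoter peaks of the 7 KLF genes had a median of 109 tags, against 59 over all genes with a promoter peak. The plot of promoter peak tags shows that KLF13, KLF6 and KLF5 overlapped in their intervals, and that all were above KLF10, whose upper bound of 131 was below the lower bound of 149 for KLF5. KLF3, at the 55.7th percentile, and KLF4, at the 38.2nd, overlapped each other and the median of all genes. KLF11 was at the 3.61st percentile. All 7 of these summits were upstream of their nearest start, as were 74.7% of those of all genes. Just inside the limit of 1 kb was the second KLF3 peak, at 828 bp, and just outside it were peaks 1214 bp upstream of the internal KLF5 start (46 tags), 1464 bp upstream of KLF6 (59 tags) and 1779 bp upstream of KLF10 (52 tags).

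Beyond the promoters, each of the 10 genes had at least 1 SOX9 peak in the gene or within 100 kb, as did 83.5% of protein-coding genes. The number ranged from 1 at KLF2 and KLF4 to 13 at KLF5, against a median of 3 over all protein-coding genes. At least 13 were found at 2.39% of protein-coding genes. At least 6, the number at KLF3, KLF6 and KLF13, were found at 21.9%, and at least 4, the number at KLF10, at 39.7%. Neighbouring genes account for part of these counts, so each peak was also assigned to the gene with the nearest TSS. By that measure 36 of the 51 peaks belonged to the KLF gene, and 9 of the 10 genes had at least 1, against 49% of all protein-coding genes. KLF5 had 11 such peaks, KLF6 and KLF13 6 each, KLF3 5 and KLF10 4, while KLF4, KLF9, KLF11 and KLF16 had 1 each and KLF2 had 0. At least 11 peaks by nearest TSS were found at 0.0744% of protein-coding genes, at least 6 at 1.15%, at least 5 at 1.98% and at least 4 at 3.69%. This measure also depends on how many other genes are nearby. Within 100 kb, KLF5, KLF10 and KLF13 had 1 other protein-coding gene each, KLF3 had 2 and KLF6 had 0.

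**Figure D2:**
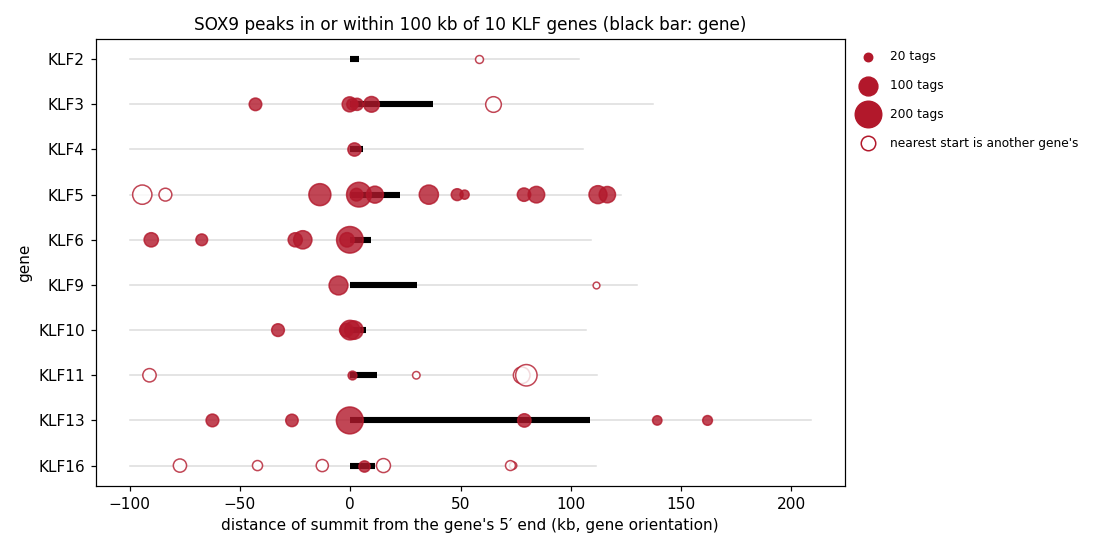
All 51 SOX9 peaks by the distance of the summit from the 5′ end of each KLF gene in kb, with the area of a point in proportion to its ChIP tags and the gene drawn as a black bar. Filled points are the 36 peaks whose nearest TSS is that of the KLF gene, and open points the other 15, most of them at KLF11 and KLF16.

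The gene with most peaks was KLF5, with tag counts from 24 to 174 and a median of 78. After the promoter peak, the most tags were found 13774 bp upstream of the gene, where 138 tags (116 to 163) were counted and SOX9 reached 34, against 9 in the input. None of the 6 elements was present within 100 bp of that summit. Next was a peak 94280 bp upstream with 106 tags (86.8 to 128), whose nearest start was that of PIBF1. A peak 13056 bp beyond the end of the gene held 105 tags (85.9 to 127), and SOX9 reached 35 in it, against 10 in the input. The tag intervals of these 3 distal peaks overlapped. A further group lay 89721 and 93972 bp beyond the end of the gene with 92 and 76 tags. Outside the limit of 100 kb, peaks with KLF5 as the nearest gene went on at 121636, 133093, 138396 and 171310 bp from the gene, up to 200 kb, with 68, 93, 83 and 98 tags. For the other genes, the peaks just outside the limit were 104476 and 110372 bp from KLF13 with 17 and 92 tags, nearest to TRPM1.

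Of the 42 peaks farther than 1 kb from a KLF start, 35 were also farther than 1 kb from the start of any other protein-coding gene, and these were set beside the 9192 such peaks of the whole genome. CCAAT was within 100 bp of the summit in 8 of the 35 (22.9%), against 22.5% of all such peaks. The SOX9 heptamer was present in 9 (25.7%), against 32.7%, and AP-1 in 7 (20%), against 25%. The GC box was present in 5 (14.3%), against 15.5%. The median tag count was 47 in the 35 peaks, against 37 in all such peaks. The following 6 sequences are those that hold the SOX9 heptamer within 50 bp of the summit. Matches are in capitals, and each reads 5′ to 3′ on the strand of the gene from hg19, centred on the summit.
KLF6 near upstream, chr10:3828887-3828987, minus strand: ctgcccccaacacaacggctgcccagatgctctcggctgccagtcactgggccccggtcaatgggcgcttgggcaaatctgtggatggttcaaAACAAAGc
KLF5 downstream, chr13:73664685-73664785, plus strand: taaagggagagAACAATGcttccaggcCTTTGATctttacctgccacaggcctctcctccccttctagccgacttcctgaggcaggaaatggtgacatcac
KLF5 far upstream, chr13:73534784-73534884, plus strand: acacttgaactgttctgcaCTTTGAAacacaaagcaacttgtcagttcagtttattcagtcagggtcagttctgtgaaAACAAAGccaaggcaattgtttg
KLF3 intron, chr4:38668840-38668940, plus strand: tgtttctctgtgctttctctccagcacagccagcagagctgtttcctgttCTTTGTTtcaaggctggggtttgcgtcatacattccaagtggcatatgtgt
KLF3 downstream, chr4:38730359-38730459, plus strand: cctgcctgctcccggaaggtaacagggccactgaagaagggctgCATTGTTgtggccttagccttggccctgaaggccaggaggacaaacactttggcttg
KLF6 far upstream, chr10:3917642-3917742, minus strand: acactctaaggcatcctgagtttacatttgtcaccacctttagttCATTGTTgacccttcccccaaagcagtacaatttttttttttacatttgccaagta
The KLF6 near upstream peak, 1464 bp from the start, had its heptamer 46 bp downstream of the summit. The KLF5 downstream window held a pair of heptamers on opposite strands, 36 and 20 bp upstream of the summit. The far upstream window held a pair 59 bp apart. The KLF3 intron peak, 2925 bp from the nearest start with 42 tags, had its heptamer 3 bp from the summit. The KLF3 downstream peak, 27271 bp beyond the gene with 70 tags, also had it 3 bp from the summit, and SOX9 reached 40 there, against 4 in the input. Its nearest start was that of TLR10. The KLF6 far upstream peak, 90219 bp from the start with 58 tags, had the heptamer 2 bp from the summit.

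At KLF3, the other peak with 70 tags was in an intron 9482 bp from the nearest start, where SOX9 reached 35, against 8 in the input. KLF6 had its most tags outside the promoter 21515 bp upstream, with 95 tags (76.9 to 116) and an AP-1 element 8 bp from the summit, followed by the peak 1464 bp upstream with 59. In KLF10 the distal peaks were 1779 and 32747 bp upstream with 52 and 46 tags. In KLF13 those with most tags were in an intron and 62481 bp upstream, with 51 and 46 tags.

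KLF9 had no promoter peak, but 5493 bp upstream of its start the interval chr9:73033667-73035432 held 101 tags (82.3 to 123). SOX9 reached 21 there, against 6 in the input. The sequence around this summit is shown because it is the only SOX9 peak nearest to KLF9, with its 2 GC boxes in capitals.
KLF9 upstream, chr9:73035016-73035116, minus strand: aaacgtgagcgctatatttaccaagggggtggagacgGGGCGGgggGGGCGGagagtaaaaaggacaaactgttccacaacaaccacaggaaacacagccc
The GC boxes were centred 11 and 2 bp from the summit, and an AP-1 element was centred 58 bp downstream of it. On the other strand, CACCC boxes were centred 82 and 22 bp upstream of the summit. The other KLF9 peak, 81128 bp beyond the gene, held 13 tags (6.92 to 22.2) and was nearest to SMC5. KLF2, whose single peak 54689 bp beyond the gene held 18 tags (10.7 to 28.4), was the only gene of the set with no peak nearest to itself, the nearest start being that of EPS15L1.

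Of the 12 peaks near KLF11 and KLF16, 7 lay at the starts of other genes. Within 100 kb of KLF11, the most tags were 131 and 79, found 47 and 142 bp upstream of starts of RRM2, which encodes a subunit of ribonucleotide reductase. The peak nearest to KLF11 outside its promoter, 17951 bp beyond the gene, held 16 tags. KLF16 had 7 other protein-coding genes within 100 kb, against 0 for KLF4 and KLF6, and its 2 strongest peaks, with 56 and 50 tags, were 50 bp upstream of a start of REXO1 and 386 bp upstream of one of CSNK1G2. Its only own peak was intronic with 36 tags. No such peak was found near the other 8 genes, where the 5 remaining peaks assigned to another gene were more than 1 kb from its start.

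The number of peaks nearest to a gene's own start was higher at the 5 genes with the most local input signal. The number within 100 kb followed the input less closely. It was 13 at KLF5, 7 at KLF16, 6 each at KLF3, KLF6 and KLF13, 5 at KLF11 and 4 at KLF10. The input within 100 kb of the gene, relative to the median of 200-kb windows over the autosomes, was 2.30 at KLF5, 1.65 at KLF6, 1.60 at KLF13, 1.49 at KLF10 and 1.39 at KLF3. It was 1.09 at KLF11, 1.05 at KLF9, 0.938 at KLF4, 0.814 at KLF16 and 0.678 at KLF2. The 5 genes above 1.2 had 4 to 11 peaks nearest to their own starts, and their strongest promoter peaks held 64 to 206 tags. The 5 below it had 0 or 1 such peak and at most 50 tags in a promoter peak. Over all protein-coding genes, at least 4 own peaks were found at 14.8% of the 474 genes with a local input of 2 or more, at 7.08% of the 6819 genes from 1.2 to 2 and at 1.48% of the 12869 genes under 1.2. Promoter peaks were found at 66.9%, 58.1% and 36.9% of these genes in the same order. At least 11 own peaks, the number at KLF5, were found at 0.633% of the genes with an input of 2 or more. The part of the local input in the KLF peak counts was not tested. At the strongest peaks the signal reached 124 in SOX9 against 8 in the input at KLF6 and 98 against 8 at KLF5. These values were not scaled by the local input.

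**Figure D3:**
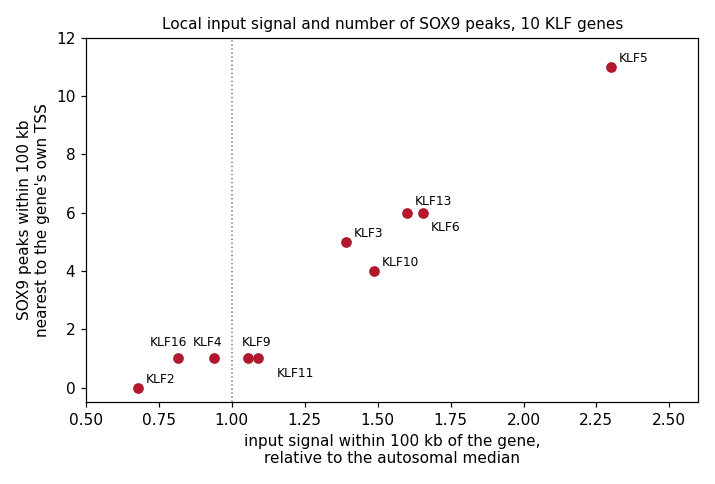
Number of SOX9 peaks within 100 kb whose nearest TSS is that of the KLF gene, against the input signal within 100 kb of the gene relative to the autosomal median, for the 10 genes. KLF5 is highest on both axes (2.30 and 11 peaks), and KLF2 is lowest on both (0.678 and 0 peaks).

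Of the 8 other KLF genes, 2 had a promoter peak, against 7 of the 10 described here and 44.8% of all protein-coding genes. Both sets were chosen with earlier results of these data known, so contrasts between them are a description only. KLF12, the CtBP-binding repressor related to KLF3, had 121 tags (100.4 to 145) 634 bp upstream of its nearest start and 9 peaks nearest to itself. In that promoter peak SOX9 reached 18, against 8 in the input. The peak was at the 88.7th percentile by tags and the 31.4th by signal. It was the one with more tags of 2 KLF12 promoter peaks. Within 1 kb of the KLF12 starts, SOX9 reached 22, against 6 in the input. KLF12 is on the same chromosome as KLF5, and its local input was 2.06. KLF15, a metabolic regulator, had 24 tags, and KLF1, KLF7, KLF8, KLF14, KLF17 and KLF18 had no promoter peak. Among these 6, SOX9 reached 2 to 6 within 1 kb of the starts, below the 10 to 13 of KLF2, KLF9 and KLF16. The SP genes encode zinc finger factors with similar DNA-binding domains, and 6 of the 9 had a promoter peak. Their tags were highest at SP2, with 305 (272 to 341), and lowest at SP6, with 44, while SP7, SP8 and SP9 had none. SP1, the founding member, had 281 tags (249 to 316), so SP2 and SP1 were above KLF13 (179 to 236) beyond the counting intervals.

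Partners of these factors also had promoter peaks. Of the corepressors CTBP1, CTBP2, SIN3A, SIN3B, HDAC1 and HDAC2, 5 had one, with the most tags at the deacetylase HDAC1 (244), the fewest at CTBP1 (39) and none at SIN3B, while the scaffold protein SIN3A had 213. All 4 of the genes for proteins that modify KLF4 or KLF5 had one, and these ran from 19 tags at VHL to 67 at PIAS1. Of 5 genes that KLF factors act on in gut cells, 3 had one, with the most at MYC (587, where the local input was 4.42), the fewest at the cell cycle inhibitor CDKN1A (53) and none at ALPI and VIL1, which are markers of absorptive cells. Of 8 genes upstream of KLF factors, 6 had one, from 23 tags at the receptor gene TGFBR1 to 100 at MEF2D, with none at MEF2A and the intestinal homeobox gene CDX2. The lists were chosen by function, and these counts stand beside the 44.8% of all protein-coding genes.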

How the data were processed

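SOX9 ChIP and input DNA of HT-29 cells were sequenced once each. The authors aligned 50-nt reads to hg19 with BWA, kept unique alignments without duplicates, and called peaks with MACS (p cut-off 1e-07, mfold 16, band width 150). In the deposited peak table, tags are counts of ChIP reads per interval, the score is -10 times the log10 of the MACS p-value, fold enrichment relates ChIP tags to the local input as a ratio, and the FDR, in percent, comes from swapping ChIP and input. The deposited signal maps count tags in 32-nt bins after extension to 150 bp. Removing duplicates caps the height of narrow peaks, and unique mapping leaves repeats without tags.

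Genes and TSSs of all transcripts came from GENCODE release 44 on hg19. Nearest genes were protein-coding. RefSeq promoter sequences (GRCh38.p14) matched 8 of the 10 genes, without KLF3 and KLF10. The genes, lists and comparisons were chosen with earlier results of these data known, and the classes of local input after seeing the values. All 10 genes and every promoter peak are named, with the 2 distal peaks of most tags per gene and those nearest to it. In the other lists, genes with the most or fewest promoter tags or no promoter peak are named, and SP1 and SIN3A were added after their values had been seen. No test was run. In simulated data, 200 of 200 planted summits were placed correctly and each motif was found in 200 of 200 windows. Python 3.11.15, NumPy 2.4.6, pandas 2.3.3, SciPy 1.17.1, pysam 0.24.0 and matplotlib 3.10.9 were used.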

Additional observations from a re-analysis of the deposited data

How the results depend on the processing

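The count of 7 KLF genes with a promoter peak stayed between 5 and 7 under 6 alternatives. It was 6 with starts of protein-coding transcripts (without KLF4), 5 with the 5′ end of each gene as its only start (without KLF4 and KLF5), 5 with a score of at least 100 (without KLF4 and KLF11), and 7 at 500 bp, at 3 kb and with interval midpoints, while the share of all protein-coding genes ran from 35.9% to 47.5%. The 51 peaks within 100 kb became 19 within 10 kb, 33 within 50 kb and 74 within 200 kb. Over all protein-coding genes, the median number per gene was 3 within 100 kb and 1, 2 and 5 within those distances. Within 100 kb the median of the 10 KLF genes was 5.5. The median of 109 tags became 174 (all genes 66) with a score of at least 100 and 141.5 (all genes 59) with starts of protein-coding transcripts. In place of tags, the median highest SOX9 signal was 47 (all genes 23), and 38 (17) less the highest input signal. Over all 51 peaks, CCAAT was present in 35.3% within 100 bp, 17.6% within 50 bp and 62.7% over the whole interval, against 26.4%, 17.1% and 60.7% of all peaks. The shares within 100 bp, within 50 bp and over the whole interval were 35.3%, 17.6% and 56.9% for the GC box (all peaks 37.7%, 23.9% and 57.7%), 49.0%, 19.6% and 82.4% for CACCC (48.1%, 28.4% and 86.7%), and 15.7%, 3.92% and 39.2% for AP-1 (15.1%, 9.51% and 28.6%). Within 100 bp and over the whole interval they were 19.6% and 56.9% for the SOX9 heptamer (20.5% and 50.1%) and 5.88% and 31.4% for the ETS core (15.1% and 32.6%). Longer windows hold more matches by their construction. No paired analysis was possible because each library was made once. Without replicates, differences between peaks were judged against counting error only, and the spread between cultures is unknown. A start without a peak had no enrichment past the peak caller's limit at this depth, which does not show that SOX9 was absent.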
